A study of Mus musculus with 10 samples.

Results

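The genes of the respiratory chain and of ATP synthase were examined in RNA sequencing libraries from a mouse ovarian tumour model. The members were the protein-coding entries of the deposited count table whose symbol names a subunit or a named assembly factor of complexes I to IV or of ATP synthase (symbols beginning Nduf, Uqcr, Cox with a digit, Atp5, mt-Nd, mt-Co, mt-Cytb or mt-Atp, and Sdha, Sdhb, Sdhc and Sdhd). The rule took 118 of the 55385 genes in the table, 105 from nuclear chromosomes and 13 from the mitochondrial genome. After the filter on low counts, 112 members were tested among 15064 genes. The 6 members that were not tested were Cox7b, Cox7b2, Cox8c, mt-Atp8, mt-Nd4l and a second Atp5o entry with no counts. Of the 22 complex IV entries, 19 passed the filter and only 20 had any count. Some of Cox7b, Cox7b2 and Cox8c thus also had no counts, and the reason was not tested.

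There were 5 libraries labelled IL6 shRNA1, from cells given an shRNA against Il6 (genotype label IL6 knockdown), and 5 libraries labelled control shRNA, from cells given a pLKO.1-puro vector with an shRNA that targets no mammalian gene. Both groups come from a tumour line with mutated Arid1a and Pik3ca, which the titles call APV245 and the design text calls APC245, and all 10 libraries are labelled as untreated and as batch 1. The sample labels describe cultured tumour cells, whereas the design text describes subcutaneous tumours grown from the line. The labels do not say whether replicates came from separate animals or cultures, so the p-values measure the spread between these libraries, which may be technical. A single shRNA was compared with a single control, and the host animals of the tumours are not described in the sources used here.

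Total counts ran between 17905397 and 19934278 in the IL6 shRNA1 libraries and between 18224751 and 22682346 in the control shRNA libraries. The targeted gene was not lower: Il6 averaged 1.73 ± 0.41 CPM (counts scaled to depth) in the libraries labelled IL6 shRNA1 and 1.26 ± 0.64 CPM in the control shRNA libraries (SD, n = 5 each), with an edgeR quasi-likelihood adjusted p of 0.44, so directions below are those of the libraries as labelled. Transcripts of other cell types were present in every library. All 22 leukocyte markers tested had a positive log2 fold change of IL6 shRNA1 over control shRNA. At an edgeR adjusted p under 0.05, 14 of them were called higher and 0 lower, where 11.8% of all genes were called. The summed level of the leukocyte markers was 3422 to 6821 CPM in the IL6 shRNA1 libraries and 1281 to 3582 CPM in the control shRNA libraries. The B cell markers Cd79a and Ms4a1 were under 0.3 CPM in both groups. The 12 skeletal muscle markers summed to 85.8 to 10687.3 CPM in the IL6 shRNA1 libraries and to 43.0 to 1279 CPM in the control shRNA libraries, and Tnnc2 among them was under 0.1 CPM in both. Of the 7 epithelial and tumour line markers tested, 5 had a positive and 2 (Krt19 and Wt1) a negative log2 fold change, and 1 was called, Upk3b, which averaged 119.9 CPM in the IL6 shRNA1 libraries and 58.9 CPM in the control shRNA libraries. Krt8 averaged 71.0 CPM in the IL6 shRNA1 libraries and 53.0 CPM in the control shRNA libraries, Epcam averaged 4.17 CPM in the IL6 shRNA1 libraries and 2.81 CPM in the control shRNA libraries, and Pax8 was under 0.1 CPM in both.

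The respiratory chain sits in the inner mitochondrial membrane. Complex I takes electrons from NADH and complex II takes them from succinate, complex III passes them on to cytochrome c, and complex IV hands them to oxygen. Complexes I, III and IV pump protons as they do so, and ATP synthase lets the protons flow back to make ATP. The mitochondrial genome encodes a small set of core subunits, and the nucleus encodes all others, so that the complexes need both genomes. Many tumours keep an active respiratory chain beside a high rate of glycolysis, and complex II is also an enzyme of the tricarboxylic acid cycle.

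Few members passed the test, and most of those that did lie on chromosome 1. Of the 112 members tested, 6 were higher and 1 was lower in the IL6 shRNA1 libraries at an adjusted p under 0.05 (edgeR quasi-likelihood test, Benjamini-Hochberg adjustment over all 15064 genes), and 105 were not called. That is 6.25% of the members, where 11.8% of all genes tested were called, 5.62% of them higher and 6.16% lower. The median log2 fold change of IL6 shRNA1 over control shRNA was 0.03 over the members and -0.01 over all genes, and 65 members had a positive and 47 a negative value. Of the 105 members that were not called, 95 had a 95% interval of the fold change that lay within 1.5-fold of equality in either direction and 101 had one within 2-fold, so for most members a larger difference lay outside the interval. The exceptions at 2-fold were Cox20, Cox6a2, Cox6b2 and Cox8b. The groups did not overlap for 7 members, against 10.9% of all genes.

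**Figure D1:**
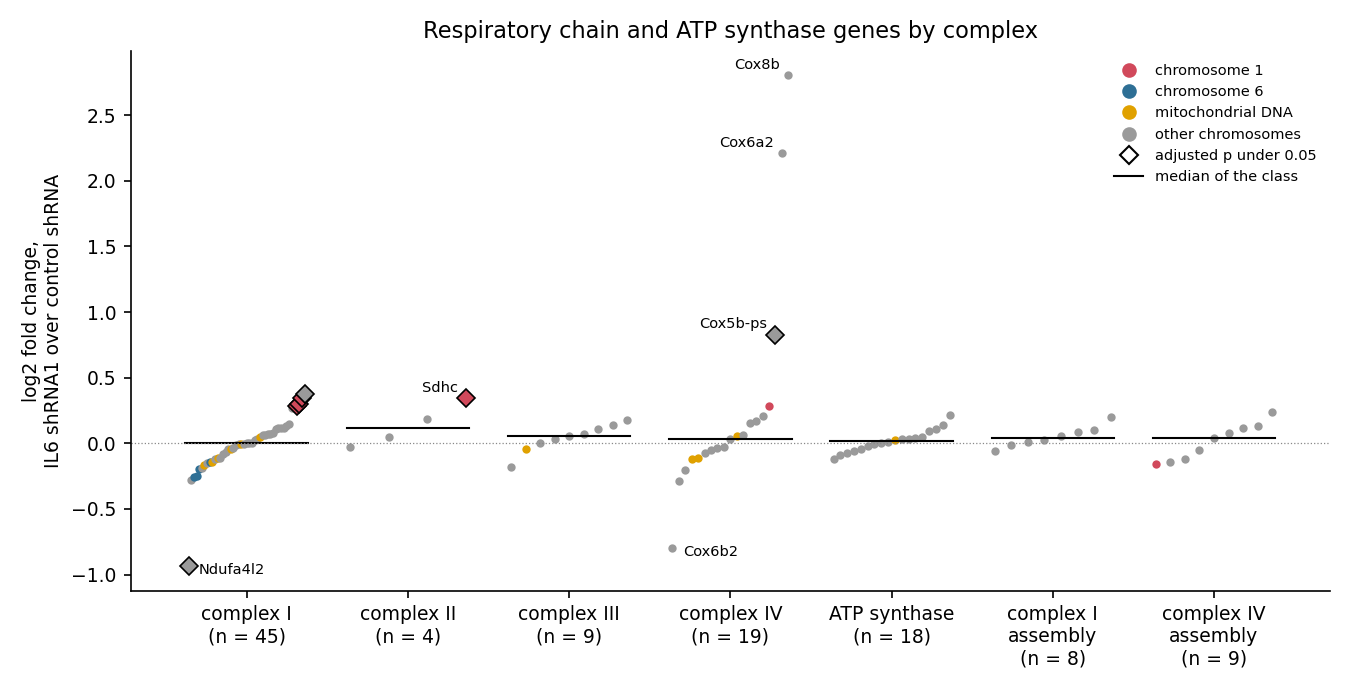
The log2 fold change of IL6 shRNA1 over control shRNA (vertical axis) is plotted for each of the 112 members tested, grouped by complex and sorted within it, with colours for the chromosome, diamonds for the 7 members at an adjusted p under 0.05 and a bar for the median of each class. The class medians lie between 0.0003 (complex I) and 0.12 (complex II), and the points farthest from 0 are Cox8b at 2.80, Cox6a2 at 2.21 and Ndufa4l2 at -0.94.

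Of the 45 tested genes with symbols of complex I subunits, the entry point for NADH, 4 were higher and 1 was lower, with a median log2 fold change of 0.0003. That is 11.1%, near the 11.8% of all genes. The class goes by symbol, so it includes Ndufa4, whose protein is now placed in complex IV, and its relative Ndufa4l2. Complex II had 1 of 4 higher, and complex IV had 1 of 19 higher, a gene listed as Cox5b-ps. Of the 9 complex III genes and the 18 ATP synthase genes 0 were called, with 0 and 1 of them at an unadjusted p under 0.05 in edgeR and 0 and 1 called by DESeq2. None of the 8 complex I assembly factors and 9 complex IV assembly factors was called by edgeR or DESeq2, and 0 of both had an unadjusted p under 0.05. Of all 15064 genes tested, 31.2% had an unadjusted p under 0.05 in edgeR, and DESeq2 called 1653 higher and 1374 lower. The medians of the classes were 0.12 for complex II, 0.06 for complex III, 0.03 for complex IV, 0.02 for ATP synthase, and 0.04 for either set of assembly factors. The difference between classes was not tested.

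The called genes with complex I symbols stood on chromosomes 1, 3 and 10. Ndufs1 (chromosome 1, positions 63143596 to 63176833, GRCm38) encodes the core subunit that carries iron-sulphur clusters in the arm that oxidises NADH. It was measured at 87.70, 83.93, 86.54, 74.96 and 86.96 CPM in IL6 shRNA1 libraries 1 to 5 and at 67.00, 67.64, 68.29, 72.78 and 66.44 CPM in control shRNA libraries 1 to 5. The groups did not overlap, although IL6 shRNA1 library 4 came close to control shRNA library 4. Ndufs1 thus had a log2 fold change of 0.30 ± 0.06 (SE; edgeR adjusted p = 0.014).

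Ndufa10 (chromosome 1, positions 92439010 to 92473860) encodes an accessory subunit. It had 89.30, 91.73, 106.74, 92.83 and 89.98 CPM in the IL6 shRNA1 libraries and 73.74, 86.00, 76.37, 74.28 and 75.27 CPM in the control shRNA libraries. The groups did not overlap, with IL6 shRNA1 library 3 and control shRNA library 2 each above the rest of their group. Its log2 fold change was 0.29 ± 0.07 (SE; edgeR adjusted p = 0.026), and the adjusted p was 0.060 without control shRNA library 5.

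Ndufc1 (chromosome 3, positions 51404677 to 51408988) encodes a small accessory subunit of the membrane arm. It was the member called higher in complex I that does not lie on chromosome 1. Its level was 24.53, 26.97, 30.30, 31.01 and 26.36 CPM in the IL6 shRNA1 libraries and 22.62, 22.60, 20.70, 19.04 and 22.54 CPM in the control shRNA libraries, with no overlap. Its log2 fold change was 0.37 ± 0.09 (SE; edgeR adjusted p = 0.022), and the call held without any one of the 10 libraries.

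Ndufa4l2 (chromosome 10, positions 127514967 to 127517154) was the called member that fell. It encodes a protein related to Ndufa4 that is induced in low oxygen through HIF-1 and is known to lower complex I activity, and it is abundant in pericytes. Its level was 52.59, 34.82, 40.46, 29.64 and 36.89 CPM in the IL6 shRNA1 libraries, against 61.31, 85.95, 61.68, 50.95 and 112.05 CPM in the control shRNA libraries. Control shRNA libraries 5 and 2 were highest, and the groups overlapped between IL6 shRNA1 library 1 and control shRNA library 4. The log2 fold change was -0.94 ± 0.22 (SE), a level 47.7% lower in the IL6 shRNA1 libraries, with an edgeR adjusted p of 0.026. The call was lost, with adjusted p between 0.056 and 0.065, without IL6 shRNA1 library 2, 3, 4 or 5 or without control shRNA library 2. It was also lost, with smaller log2 fold changes, with a leukocyte score (-0.48, edgeR adjusted p = 0.61) or a muscle score (-0.59, edgeR adjusted p = 0.11) as a covariate. The same held without IL6 shRNA1 library 5 and control shRNA libraries 2 and 5, the 3 farthest from the centre of the first principal component (-0.56, edgeR adjusted p = 0.18). Most genes lost their calls in these fits. Of all genes, 28 were called higher and 14 lower with the leukocyte score, 281 and 218 with the muscle score, and 130 and 82 without the 3 libraries, against 847 and 928 in the main fit. Over 24 alternative fits 14 kept the call. In bulk RNA, fewer cells of a type and less RNA per cell cannot be told apart. The pericyte markers Rgs5 and Pdgfrb, given here because of the known expression of Ndufa4l2, were not called: Rgs5 averaged 67.4 CPM in the IL6 shRNA1 libraries and 66.1 CPM in the control shRNA libraries (log2 fold change 0.03, edgeR adjusted p = 0.96), and Pdgfrb averaged 223 CPM in the IL6 shRNA1 libraries and 253 CPM in the control shRNA libraries. Of the 8 fibroblast and pericyte markers, 2 were called lower (Dcn and Lum) and 0 higher, or 25% where 11.8% of all genes were called. The log2 fold change was positive for 3 of the 8, up to 2.02, and negative for 5. Des is in this list and in that of skeletal muscle. The list summed to 22101 to 39704 CPM in the IL6 shRNA1 libraries and 20166 to 47112 CPM in the control shRNA libraries. The highest sums of the control group were in libraries 5 and 2. Their part in the Ndufa4l2 difference was not tested. Hif1a itself averaged 240 CPM in the IL6 shRNA1 libraries and 254 CPM in the control shRNA libraries (edgeR adjusted p = 0.64). These are RNA levels, and neither the HIF-1 protein nor its activity was measured.

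Complex II has 4 subunits, all encoded in the nucleus. Sdhc (chromosome 1, positions 171127165 to 171150603), a membrane anchor that helps to bind haem and ubiquinone, had 125.91, 125.02, 128.36, 131.91 and 116.23 CPM in the IL6 shRNA1 libraries and 93.43, 104.02, 103.43, 91.09 and 102.80 CPM in the control shRNA libraries. The groups did not overlap. The log2 fold change was 0.34 ± 0.06 (SE; edgeR adjusted p = 0.0080), a difference of 26.8%. The other 3 subunits were not called. The catalytic flavoprotein Sdha averaged 207 CPM in the IL6 shRNA1 libraries and 211 CPM in the control shRNA libraries, the iron-sulphur subunit Sdhb averaged 80.4 CPM in the IL6 shRNA1 libraries and 70.6 CPM in the control shRNA libraries, and the second membrane anchor Sdhd averaged 98.6 CPM in the IL6 shRNA1 libraries and 95.6 CPM in the control shRNA libraries.

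In complex IV the called entry, Cox5b-ps (chromosome 13, positions 21501029 to 21501418), carries a pseudogene symbol and a protein-coding label. It was measured at 2.03, 1.88, 2.24, 1.36 and 1.64 CPM in the IL6 shRNA1 libraries and at 0.93, 1.22, 1.29, 0.62 and 1.07 CPM in the control shRNA libraries. Its log2 fold change was 0.83 ± 0.24 (SE; edgeR adjusted p = 0.048). Of its 50-base windows, 61.9% also occur in transcripts of Cox5b, so reads of the pair may be split by the counting and the level is uncertain. The call held without IL6 shRNA1 library 4 and was lost without any one of the other 9 libraries, with adjusted p between 0.048 and 0.097 over the 10 fits. Cox5b itself, on chromosome 1, averaged 117 ± 21.0 CPM in the IL6 shRNA1 libraries and 95.9 ± 8.63 CPM in the control shRNA libraries (SD, n = 5 each; log2 fold change 0.29 ± 0.12, edgeR adjusted p = 0.13).

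**Figure D2:**
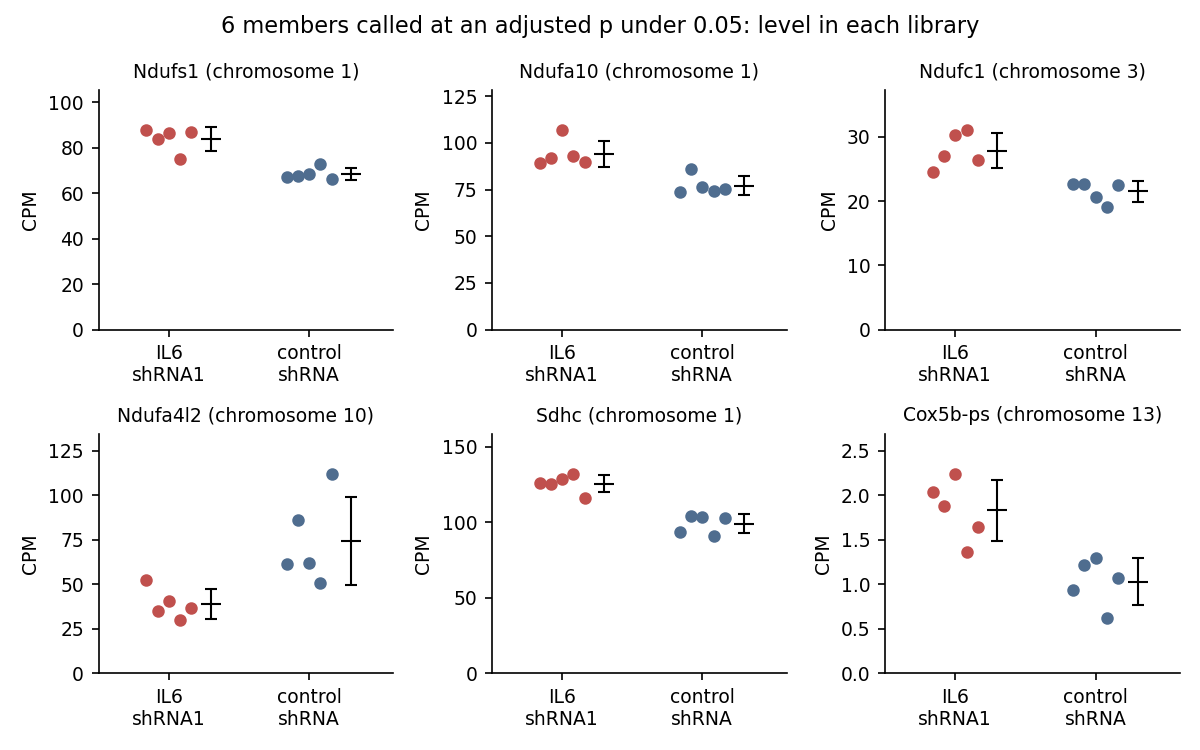
The level of 6 called members (vertical axis, CPM from 0) is plotted in every library, IL6 shRNA1 on the left and control shRNA on the right, with the mean and SD of 5 libraries beside the points. The groups are separate for 5 of them and overlap for Ndufa4l2, where control shRNA libraries reach 112.05 CPM.

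ATP synthase and complex III held no call, and the values of their main subunits lay close together. The alpha and beta subunits of the catalytic head of ATP synthase were among the most abundant nuclear members by CPM. Atp5b, the beta subunit that bears the catalytic sites, averaged 983 CPM in the IL6 shRNA1 libraries and 958 CPM in the control shRNA libraries, with a 95% interval of the log2 fold change from -0.15 to 0.23. Atp5a1, the alpha subunit that alternates with it, averaged 704 CPM in both groups, with an interval from -0.13 to 0.13. The c subunit of the proton-driven ring is encoded by 3 genes, and their log2 fold changes were 0.10 for Atp5g1, 0.03 for Atp5g2 and 0.01 for Atp5g3. Atp5pb, a part of the peripheral stalk, was the ATP synthase member nearest to a call. It had 167.81, 178.27, 210.91, 198.84 and 171.96 CPM in the IL6 shRNA1 libraries, against 165.40, 158.46, 164.20, 153.21 and 155.65 CPM in the control shRNA libraries. The groups did not overlap, the log2 fold change was 0.22 ± 0.07 (SE), and the edgeR adjusted p was 0.070. DESeq2 called it. In complex III the values ran between -0.18 for Uqcr11, a small accessory subunit, and 0.18 for Uqcrfs1, the Rieske iron-sulphur protein. Neither reached the threshold (edgeR adjusted p = 0.53 and 0.22).

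The members on chromosomes 1 and 6 were shifted in the direction of the other genes of these chromosomes. Of the 7 members on chromosome 1, 6 had a positive log2 fold change, 4 were called higher and 0 lower, and the median was 0.29. Of all 917 genes tested on chromosome 1, 29.3% were called, 29.2% higher and 0.109% lower, and the median was 0.32. All 4 members on chromosome 6 had a negative value with a median of -0.22. None of the 4 was called by edgeR or DESeq2, and 0 had an unadjusted p under 0.05. Of the 797 genes on chromosome 6, 29.7% were called, 27.1% lower and 2.63% higher, with a median of -0.23. An unadjusted p under 0.05 in edgeR was found for 52.4% of these genes. Of the 90 nuclear members elsewhere, 2 were higher and 1 was lower with a median of 0.03, where 9.52% of the 13328 other nuclear genes were called, 4.19% higher and 5.33% lower.

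The genes beside the chromosome 1 members were shifted the same way. The 20 genes nearest to Sdhc had a median log2 fold change of 0.39 beside its own 0.34. The medians were 0.22 around Ndufs1 (0.30) and 0.27 around Ndufa10 (0.29). Around the uncalled members they were 0.38 for Cox5b (0.29) and 0.25 for Ndufb3 (0.29, edgeR adjusted p = 0.13), an accessory subunit of complex I. Cox20, an assembly factor of complex IV, was the exception with a log2 fold change of -0.16 ± 0.41 (SE) among neighbours at 0.34. It averaged only 0.58 CPM in the IL6 shRNA1 libraries and 0.64 CPM in the control shRNA libraries. Of its exon bases, 91.05% are overlapped by Hnrnpu on the opposite strand. The strand setting of the counting is not given in the sources used here.

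On chromosome 6 the members were Ndufa4, Ndufa5, Ndufb2 and Ndufa9. Ndufa4 had a log2 fold change of -0.20 ± 0.12 among neighbours with a median of -0.34. Ndufa5, an accessory subunit of the matrix arm of complex I, had -0.25 ± 0.12 among neighbours at -0.31. Its levels were 23.09, 31.12, 31.99, 33.25 and 29.00 CPM in the IL6 shRNA1 libraries, against 33.69, 40.22, 36.25, 28.40 and 38.50 CPM in the control shRNA libraries. The groups overlapped, because control shRNA library 4 lay below 4 of the IL6 shRNA1 libraries. Ndufb2, a subunit of the membrane arm, had -0.25 ± 0.15 with neighbours at -0.18. Ndufa9, a subunit next to the ubiquinone channel, had -0.14 ± 0.07 where its neighbours had a median of 0.03.

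The shift of the chromosomes was seen library by library over all their genes. The median centred log2 CPM of chromosome 1 genes was 0.13 to 0.23 in the IL6 shRNA1 libraries and -0.16 to -0.14 in the control shRNA libraries, with no overlap, and that of chromosome 6 genes was -0.17 to -0.06 in the IL6 shRNA1 libraries and 0.08 to 0.17 in the control shRNA libraries. The mean over the 7 chromosome 1 members was noisier, at -0.004 to 0.30 in the IL6 shRNA1 libraries and -0.21 to 0.04 in the control shRNA libraries, so the groups overlapped. Whether the chromosome or the shRNA goes with the members' values cannot be told apart in this design.

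**Figure D3:**
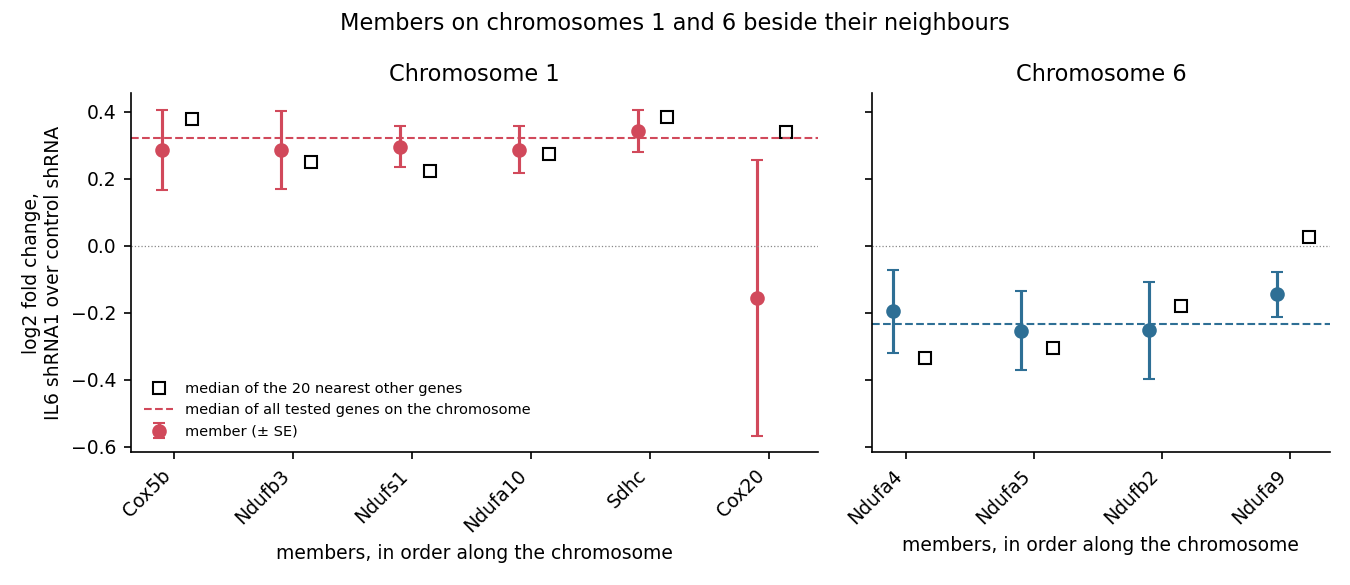
The log2 fold change of IL6 shRNA1 over control shRNA (vertical axis) is plotted for 6 members on chromosome 1 and the 4 on chromosome 6 in map order, with SE bars, beside the median of the 20 nearest other genes (squares) and of all genes tested on the chromosome (dashed line). The chromosome 1 members plotted, except Cox20, lie between 0.29 and 0.34 near the line at 0.32, and all chromosome 6 members lie between -0.25 and -0.14 around the line at -0.23.

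Promoter windows from RefSeq (GRCm38.p6, 250 bases before to 50 after the annotated start) were found for 83 of the 117 distinct member symbols, 89 windows in all because some genes have more than one annotated start. They are printed here for a member each on chromosomes 1, 3 and 6 and for the pair of Cox8 isoforms described below, to show where these promoters hold or lack known words of respiratory gene promoters. The words searched on both strands were GCGCA followed by any base and GCGC (the site of the factor NRF1, which binds many respiratory gene promoters), CCGGAAG (a core of ETS family sites such as those of GABP) and CANNTG (the E-box, bound by myogenic factors among others). No word is contained in another, though matches may share letters at their ends. Capitals mark the matches to NRF1 in Ndufa5, to ETS on the reverse strand in Cox8a and the E-boxes in Cox8b. Ndufa10 has none of the 3 words, and the single E-boxes of Ndufc1 and Cox8a are left in lower case. The windows are chr1:92473709-92474008 for Ndufa10, chr3:51408906-51409205 for Ndufc1, chr6:24527477-24527776 for Ndufa5, chr19:7217567-7217866 for Cox8a and chr7:140900397-140900696 for Cox8b, each read 5′ to 3′ on the minus strand.
Ndufa10: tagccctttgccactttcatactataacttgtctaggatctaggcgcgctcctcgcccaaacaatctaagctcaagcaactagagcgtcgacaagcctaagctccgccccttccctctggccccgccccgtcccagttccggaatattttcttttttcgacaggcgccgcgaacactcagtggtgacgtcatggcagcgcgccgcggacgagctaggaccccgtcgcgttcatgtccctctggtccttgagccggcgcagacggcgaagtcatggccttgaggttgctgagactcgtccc
Ndufc1: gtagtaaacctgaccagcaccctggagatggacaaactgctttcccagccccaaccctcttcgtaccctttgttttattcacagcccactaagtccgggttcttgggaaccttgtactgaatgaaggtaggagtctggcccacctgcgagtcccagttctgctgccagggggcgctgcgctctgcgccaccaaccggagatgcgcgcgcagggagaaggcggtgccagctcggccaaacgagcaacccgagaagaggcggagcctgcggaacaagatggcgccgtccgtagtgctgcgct
Ndufa5: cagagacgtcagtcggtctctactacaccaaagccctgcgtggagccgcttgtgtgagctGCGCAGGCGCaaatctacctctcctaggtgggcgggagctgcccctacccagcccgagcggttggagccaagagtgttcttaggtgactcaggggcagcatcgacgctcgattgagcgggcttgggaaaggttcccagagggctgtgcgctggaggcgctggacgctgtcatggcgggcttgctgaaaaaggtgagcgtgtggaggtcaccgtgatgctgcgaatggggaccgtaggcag
Cox8a: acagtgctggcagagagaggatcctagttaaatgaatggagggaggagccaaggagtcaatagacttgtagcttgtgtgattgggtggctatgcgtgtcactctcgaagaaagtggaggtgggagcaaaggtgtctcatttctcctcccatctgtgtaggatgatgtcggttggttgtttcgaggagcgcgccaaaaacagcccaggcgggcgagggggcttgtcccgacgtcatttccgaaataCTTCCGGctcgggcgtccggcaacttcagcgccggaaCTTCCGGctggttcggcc
Cox8b: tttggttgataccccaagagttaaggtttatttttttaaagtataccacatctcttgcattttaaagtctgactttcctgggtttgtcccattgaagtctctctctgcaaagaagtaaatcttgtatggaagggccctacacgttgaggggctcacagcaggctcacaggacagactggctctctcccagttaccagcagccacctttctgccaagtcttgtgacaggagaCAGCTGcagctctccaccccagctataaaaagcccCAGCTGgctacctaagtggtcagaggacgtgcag

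The NRF1 word occurred in 20 of the 89 member windows, or 22.5%, and in 4.6% of all 32851 windows in the table. The ETS word occurred in 25 member windows, or 28.1%, against 8.86% of all windows. The E-box, a short and common word, occurred in 67.4% of the member windows and 72.3% of all windows. These shares describe the letters of the windows and carry no measurement of binding. The genes of these factors were not called: Nrf1 averaged 39.1 CPM in the IL6 shRNA1 libraries and 41.7 CPM in the control shRNA libraries (edgeR adjusted p = 0.44), and Gabpa, the DNA-binding subunit of GABP, averaged 73.6 CPM in the IL6 shRNA1 libraries and 74.9 CPM in the control shRNA libraries (edgeR adjusted p = 0.87).

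The farthest fold changes in the set were those of the striated muscle isoforms of complex IV, Cox6a2 and Cox8b, and both were high in the libraries where muscle markers were high. Cox6a2 replaces the ubiquitous Cox6a1 in heart and skeletal muscle. Its level was 0.91, 10.13, 7.15, 6.67 and 38.58 CPM in the IL6 shRNA1 libraries and 1.61, 1.56, 6.83, 2.02 and 1.54 CPM in the control shRNA libraries. IL6 shRNA1 library 5 was highest and IL6 shRNA1 library 1 lowest of all 10, so the groups overlapped. Its log2 fold change was 2.21 ± 0.84 (SE; edgeR adjusted p = 0.11).

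Cox8b, which replaces Cox8a in the same tissues of the mouse, had 0.11, 4.30, 2.35, 2.63 and 12.86 CPM in the IL6 shRNA1 libraries and 0.42, 0.05, 2.06, 0.47 and 0.06 CPM in the control shRNA libraries. The values rest on 2 to 243 counts in the IL6 shRNA1 libraries and 1 to 48 counts in the control shRNA libraries. The log2 fold change was 2.80 ± 1.07 (SE; edgeR adjusted p = 0.11), and the groups overlapped. Creatine kinase of muscle, Ckm, had 0.32, 149, 75.3, 114 and 895 CPM in the IL6 shRNA1 libraries and 13.5, 0.93, 66.4, 24.1 and 0.42 CPM in the control shRNA libraries. The same libraries, IL6 shRNA1 5 and then 2, were highest for all 3 genes, and control shRNA library 3 was the highest of its group for each.

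Of the 11 muscle markers tested, all 11 had a positive log2 fold change, with a median of 2.80. None was called by edgeR, with 6 at an unadjusted p under 0.05, while DESeq2 called 4. Of all 15064 genes, 31.2% had an unadjusted p under 0.05 in edgeR, and DESeq2 called 1653 higher and 1374 lower. With a muscle score as a covariate, a setting added after the data were seen, the log2 fold changes were 0.14 for Cox6a2 and 0.37 for Cox8b. The score is a mean over muscle markers, which were high in the same libraries as these genes. That fit therefore cannot tell muscle content from other differences between these libraries, and the part of muscle content was not tested. Without IL6 shRNA1 library 5 they were 1.19 and 1.89. Without IL6 shRNA1 library 1 both passed the threshold (edgeR adjusted p = 0.038 and 0.045), and DESeq2 called Cox6a2 with all libraries.

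**Figure D4:**
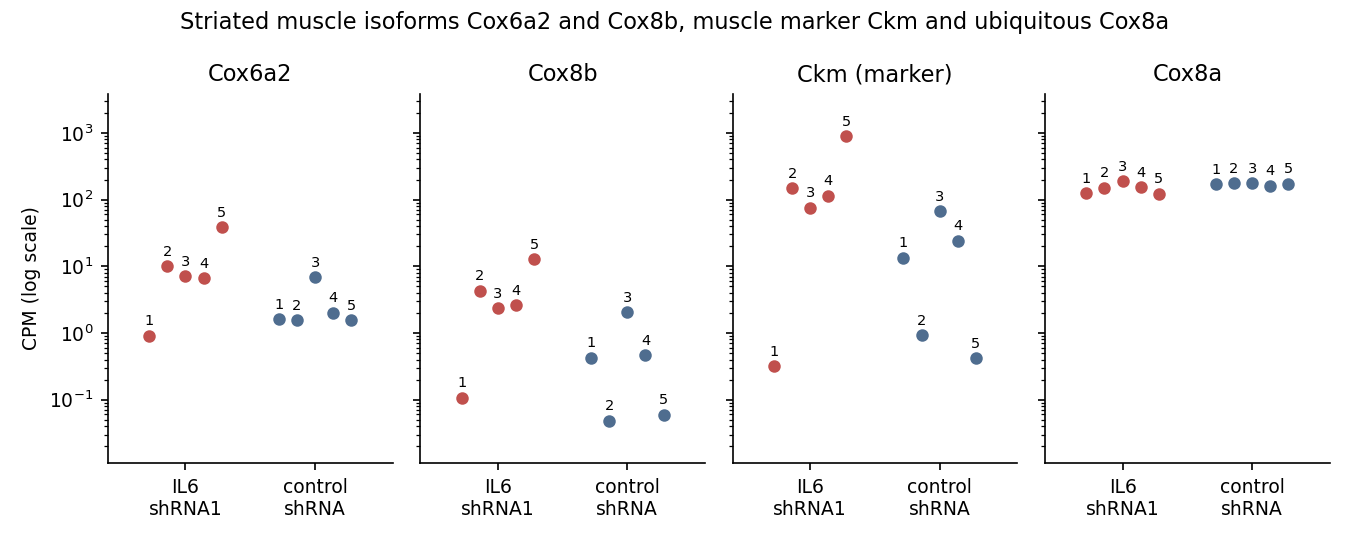
The level of Cox6a2, Cox8b, the muscle marker Ckm and the ubiquitous isoform Cox8a (vertical axis, CPM on a log scale shared by the panels) is plotted in each library, IL6 shRNA1 on the left and control shRNA on the right, with the library number above each point. Cox6a2, Cox8b and Ckm are highest in IL6 shRNA1 library 5 and spread over more than a factor of 10, whereas Cox8a stays between 122 and 190 CPM.

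Set beside their ubiquitous partners per gene length, the muscle isoforms were minor. As a percentage of the partner's FPKM (fragments scaled by gene length and depth), Cox6a2 reached a median of 2.61% of Cox6a1 in the IL6 shRNA1 libraries (range 0.52% to 20.5%) and 0.71% in the control shRNA libraries (0.60% to 2.76%). Cox8b reached 2.95% of Cox8a in the IL6 shRNA1 libraries (0.15% to 18.1%) and 0.43% in the control shRNA libraries (0.05% to 2.01%). Cox7a1, the heart and muscle partner of Cox7a2, was at 13.8% in the IL6 shRNA1 libraries and 13.5% in the control shRNA libraries, with a log2 fold change of only 0.21 ± 0.23 (SE). Ndufa4l2 stood at 44.0% of Ndufa4 in the IL6 shRNA1 libraries (29.9% to 74.2%) and at 59.6% in the control shRNA libraries (56.3% to 135%), and the ranges overlapped. Cox4i2, the isoform of Cox4i1 known from lung and low oxygen, was at 1.116% in the IL6 shRNA1 libraries and 1.31% in the control shRNA libraries. Cox6b2, a testis isoform, was at 0.67% of Cox6b1 in the IL6 shRNA1 libraries and 1.30% in the control shRNA libraries. Its level was 0.82 to 1.51 CPM in the IL6 shRNA1 libraries and 1.49 to 2.29 CPM in the control shRNA libraries. Only IL6 shRNA1 library 4 lay within the range of the controls, and the log2 fold change was -0.80 ± 0.24 (SE; edgeR adjusted p = 0.055). DESeq2 called Cox6b2 lower, and so did limma on the FPKM values. The edgeR fits without IL6 shRNA1 library 1, IL6 shRNA1 library 4 or control shRNA library 1 also called it lower.

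The mitochondrial members had overlapping levels in the 2 groups. Of the 11 tested, 3 had a positive and 8 a negative log2 fold change with a median of -0.04. None was called by edgeR, DESeq2 or limma voom, and 0 had an unadjusted p under 0.05 in edgeR, where 31.2% of all genes did. The 95% interval lay within 1.5-fold of equality for 8 of the 11 and within 2-fold for all 11. The 13 genes took 1.22%, 1.10%, 0.999%, 1.30% and 1.54% of all counts in the IL6 shRNA1 libraries, against 1.17%, 1.33%, 1.19%, 1.27% and 1.17% in the control shRNA libraries. The IL6 shRNA1 libraries spread more widely and held both the lowest and the highest value.

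The 105 nuclear members took 0.691%, 0.845%, 0.969%, 0.926% and 0.755% of all counts in the IL6 shRNA1 libraries and 0.841%, 0.815%, 0.901%, 0.778% and 0.744% in the control shRNA libraries. The ratio of mitochondrial to nuclear member counts was 1.76, 1.31, 1.03, 1.40 and 2.04 in the IL6 shRNA1 libraries and 1.39, 1.63, 1.32, 1.64 and 1.57 in the control shRNA libraries. IL6 shRNA1 library 5, with the most muscle transcript, had the highest ratio, but library 1, with the lowest sum of muscle markers of its group, had the second highest. The part of library composition in these ratios was not tested.

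**Figure D5:**
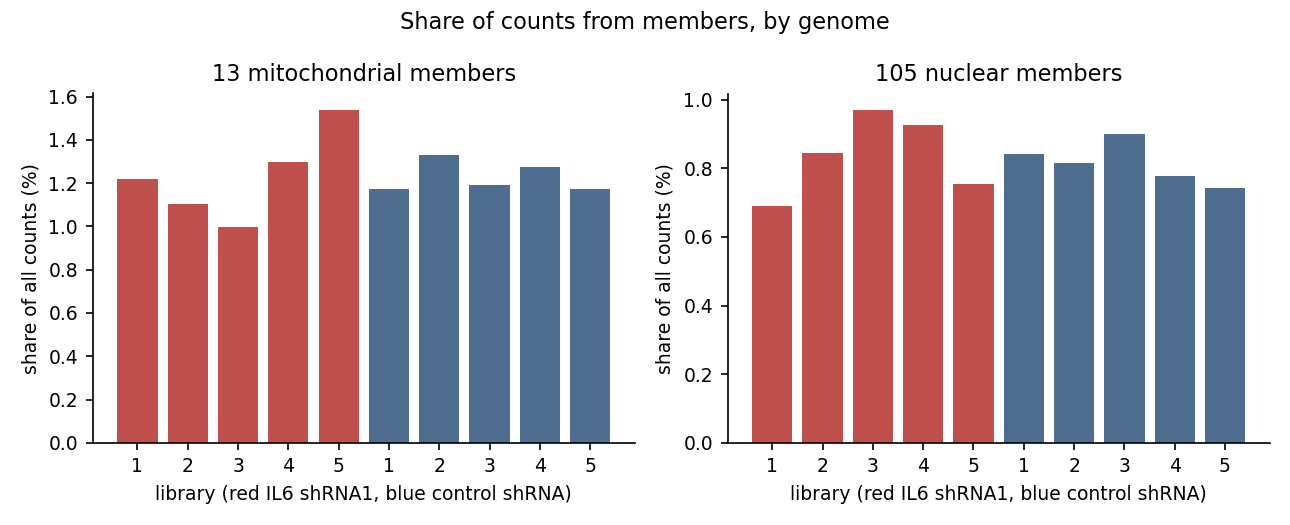
Bars show the share of all counts in each library (vertical axis, percent from 0) taken by the 13 mitochondrial members on the left and by the 105 nuclear members on the right, for IL6 shRNA1 libraries 1 to 5 (red) and control shRNA libraries 1 to 5 (blue). The mitochondrial share runs from 0.999% to 1.54% in the IL6 shRNA1 libraries and from 1.17% to 1.33% in the control shRNA libraries, so the blue bars lie within the range of the red ones.

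IL6 shRNA1 library 5 was highest and IL6 shRNA1 library 3 lowest of all 10 libraries for the 3 most abundant mitochondrial genes. The catalytic subunit of complex IV, mt-Co1, had 5375, 4793, 4186, 5081 and 6475 CPM in the IL6 shRNA1 libraries and 4667, 5412, 4551, 5207 and 5044 CPM in the control shRNA libraries. Its log2 fold change was 0.06 ± 0.11 (SE). The only mitochondrial subunit of complex III, mt-Cytb, averaged 1973 ± 362 CPM in the IL6 shRNA1 libraries and 2029 ± 212 CPM in the control shRNA libraries (SD, n = 5 each), and mt-Nd1 of complex I averaged 1734 ± 237 CPM in the IL6 shRNA1 libraries and 1679 ± 189 CPM in the control shRNA libraries. The ribosomal RNAs of the same genome are not members. One of them, mt-Rnr1, averaged 158 ± 11.8 CPM in the IL6 shRNA1 libraries and 181 ± 12.04 CPM in the control shRNA libraries (edgeR adjusted p = 0.089), and mt-Rnr2 averaged 221 ± 20.8 CPM in the IL6 shRNA1 libraries and 244 ± 25.1 CPM in the control shRNA libraries (edgeR adjusted p = 0.30).

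The levels of the mitochondrial genes spanned a wide range, and several of the genes have copies in the nuclear genome. In FPKM over all libraries, mt-Co1 was at 3277, mt-Nd1 at 1778 and mt-Cytb at 1741, while mt-Co3 was at 3.14, mt-Co2 at 2.33 and mt-Atp6 at 2.31, although all of these are annotated on the same strand. The genes with low counts lie side by side in the mitochondrial genome. A stretch of chromosome 1 (positions 24611535 to 24616197) holds annotated pseudogenes with the same sequence, among them Gm28437, Gm10925 and Gm28661. Of the 50-base windows of mt-Co2, mt-Co3, mt-Atp6, mt-Nd4l and mt-Nd3, 100%, 99.9%, 99.5%, 98.8% and 98.0% also occurred in transcripts of another gene, and these 5 genes had 2 to 141 counts in any library. For mt-Nd4 and mt-Co1 the share was 62.2% and 51.1%, and their counts were 11125 to 122330. The handling of reads that fit 2 places is not given in the sources used here, so the levels of these 7 genes are uncertain, and whether the copies set the low counts was not tested. The copies themselves were low: Gm28437 averaged 2.64 CPM in the IL6 shRNA1 libraries and 2.35 CPM in the control shRNA libraries. Of the 6 genes with under 10% of windows shared, mt-Atp8 was also listed at 0 to 2 counts in each library, and unannotated sequence between the pseudogenes was not searched.

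The nuclear members were also set side by side per gene length. The highest nuclear member of complex IV was Cox6a1 at a mean of 340 FPKM, that of ATP synthase was Atp5b at 229 FPKM, that of complex III was Uqcr11 at 99.7 FPKM, that of complex I was Ndufa8 at 92.7 FPKM and that of complex II was Sdhd at 79.0 FPKM. The medians over nuclear subunit genes were 48.4 FPKM for complex IV, 46.4 FPKM for complex III, 42.6 FPKM for complex II, 42.1 FPKM for ATP synthase and 32.7 FPKM for complex I. Assembly factors, which help to build the complexes and are not part of them, stood lower at medians of 6.46 FPKM for complex I and 5.17 FPKM for complex IV. These are levels over all 10 libraries, not differences between the groups, and no test was made between complexes.

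Other genes of the same pathways were called at shares on either side of the 11.8% of all genes. Of 38 other subunits and assembly factors tested, 2 were higher and 0 lower (5.26%). Both lie on chromosome 1: Coa5, a complex IV assembly factor, averaged 122 ± 9.39 CPM in the IL6 shRNA1 libraries and 91.01 ± 3.39 CPM in the control shRNA libraries, and Tmem70, an assembly factor of ATP synthase, averaged 80.0 ± 9.197 CPM in the IL6 shRNA1 libraries and 56.6 ± 3.80 CPM in the control shRNA libraries (SD, n = 5 each; edgeR adjusted p = 0.0039 and 0.0064). The electron carrier between complexes III and IV, cytochrome c, was not called (Cycs at 105 CPM in the IL6 shRNA1 libraries and 109 CPM in the control shRNA libraries).

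Among 30 genes of mitochondrial gene expression, 3 were higher and 1 was lower (13.3%, near the share of all genes). The transcription factor Tfb2m averaged 26.6 ± 1.35 CPM in the IL6 shRNA1 libraries and 20.8 ± 0.50 CPM in the control shRNA libraries, and the RNA-binding protein Fastkd2 averaged 14.9 ± 1.45 CPM in the IL6 shRNA1 libraries and 11.2 ± 0.75 CPM in the control shRNA libraries. Both lie on chromosome 1 (edgeR adjusted p = 0.0078 and 0.022). The RNA-processing enzyme Pnpt1, on chromosome 11, had a log2 fold change of 0.32 ± 0.08 (SE; edgeR adjusted p = 0.036), and the DNA helicase Twnk, on chromosome 19, had -0.35 ± 0.09 (SE; edgeR adjusted p = 0.033). Tfam, which packages mitochondrial DNA and starts its transcription, averaged 41.2 CPM in the IL6 shRNA1 libraries and 42.5 CPM in the control shRNA libraries and was not called.

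Of the 13 regulators of mitochondrial biogenesis tested, 0 were called by edgeR or DESeq2. An unadjusted p under 0.05 in edgeR was found for 2 of them and for 31.2% of all genes. The coactivator gene Ppargc1a was too low to test, at a mean of 0.36 CPM in the IL6 shRNA1 libraries and 0.13 CPM in the control shRNA libraries. In the tricarboxylic acid cycle and pyruvate dehydrogenase list, 1 of 19 tested genes was higher and 2 were lower (15.8%). Fumarase, Fh1, on chromosome 1, averaged 105 ± 9.87 CPM in the IL6 shRNA1 libraries and 77.2 ± 5.96 CPM in the control shRNA libraries (SD, n = 5 each; edgeR adjusted p = 0.0083). Isocitrate dehydrogenase Idh2, on chromosome 7, averaged 103 ± 9.73 CPM in the IL6 shRNA1 libraries and 132 ± 15.5 CPM in the control shRNA libraries, and the succinyl-CoA ligase subunit Suclg2, on chromosome 6, averaged 49.0 ± 2.703 CPM in the IL6 shRNA1 libraries and 63.9 ± 7.90 CPM in the control shRNA libraries (edgeR adjusted p = 0.037 and 0.020). Of 18 genes of mitochondrial membrane structure and import, 0 were higher and 1 was lower (5.56%), the cristae protein gene Immt on chromosome 6 (log2 fold change -0.18 ± 0.05, SE; edgeR adjusted p = 0.039). The medians of the 5 lists lay between -0.08 and 0.10. Of the 6 genes called higher in these lists, 5 lie on chromosome 1, and of the 4 called lower, 2 lie on chromosome 6.

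The number of called members depended on which libraries and terms were in the fit. Without IL6 shRNA1 library 1, 15 of the 112 members were called, 13 higher and 2 lower, among them Cox5b, Sdhb, Uqcrfs1 and Ndufs7. Of all 15254 genes tested in that fit, 1445 were called higher and 1329 lower. With a leukocyte score as a covariate, 0 of the 112 members and 42 of all 15064 genes were called. In that fit 6 members and 1625 of all genes had an unadjusted p under 0.05 in edgeR. Without the 3 libraries farthest from the centre of the first principal component (IL6 shRNA1 5 and control shRNA 2 and 5), Sdhc was the only member called. Of all 15373 genes tested in that fit, 130 were called higher and 82 lower. The log2 fold change of Sdhc stayed between 0.31 and 0.41 in all 24 alternative fits.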

How the data were processed

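RNA from 10 libraries was sequenced, 5 labelled IL6 shRNA1 and 5 labelled control shRNA. Per the labels' protocols, total RNA was isolated on RNeasy columns and libraries were made with a NEBNext Ultra II kit. Per the submitters' processing notes, the tools were STAR 2.7.0f, featureCounts of Subread 1.6.4, SAMtools 1.11, R 4.0.4, Trim Galore 0.6.6 and FastQC 0.11.9, on mm10 and GRCm38. For strand and for reads with several places, the setting is not given in the sources used. The authors deposited raw whole-number counts per gene, and a table of FPKM values that equal the deposited count over gene length and column total within a relative deviation of 1.8e-07. All sample columns were used.

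The test was edgeR 4.0.16 (R 4.3.3): filterByExpr by group with a minimum count of 10, TMM factors, glmQLFit with robust estimation and glmQLFTest on the group, Benjamini-Hochberg adjustment over 15064 genes, and calls at an adjusted p under 0.05. The fit was also run on simulated independent counts with a single dispersion for all genes. Those counts held no shift along chromosomes and no mixture of cell types, so the run does not cover these features of the data. Fold changes are IL6 shRNA1 over control shRNA, CPM values carry the TMM factors, and intervals are at 95%. Alternatives used DESeq2 1.42.0 and limma 3.58.1, other scalings and filters, covariates and left-out libraries. Shared sequence was counted in 50-base windows of the GRCm38 transcripts.

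The members and all gene lists were chosen with earlier results of these data known, so no count over them is independent support. Genes named were Il6, called members, the extremes and the highest level of each class, the mitochondrial members, those on chromosomes 1 and 6, isoform pairs and called pathway genes. Other genes named (Atp5pb, Cycs, Hif1a, Nrf1, Gabpa, Tfam, Ppargc1a, Sdhb, Ndufs7, markers) were chosen after their values were seen. A called member and a leukocyte marker enter the counts but are not reported here by name.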

Additional observations from a re-analysis of the deposited data

Results flagged for a closer look

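Single libraries stood apart from the other 4 of their group, by the gap to the nearest value over the range of the group, in 12 of 132 groups of values, where chance gives about 6.6. Of these, 4 fell on the isoforms and markers of muscle. IL6 shRNA1 library 5 stood high for Cox6a2 at 38.6 CPM (others 0.91 to 10.1 CPM) and for the summed muscle markers at 10687.3 CPM (others 85.8 to 2553 CPM). Control shRNA library 3 stood high for Cox6a2 at 6.83 CPM (others 1.54 to 2.02 CPM) and for Cox8b at 2.06 CPM (others 0.05 to 0.47 CPM).

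Among called members, Ndufa10 was high in IL6 shRNA1 library 3 at 106.74 CPM (others 89.3 to 92.8 CPM) and in control shRNA library 2 at 86.0 CPM (others 73.7 to 76.4 CPM). Of the uncalled members, Ndufb3 was low in control shRNA library 4 at 22.1 CPM (others 27.6 to 29.2 CPM), and Cox17, a copper chaperone of complex IV, was high in IL6 shRNA1 library 3 at 5.95 CPM (others 4.82 to 5.09 CPM). Of the mitochondrial genes, mt-Nd1 was high in control shRNA library 2 at 2012.54 CPM (others 1574 to 1653 CPM) and mt-Atp6, whose sequence is shared with a chromosome 1 copy, was high in the same library at 2.09 CPM (others 1.36 to 1.55 CPM). Twnk, the mitochondrial DNA helicase, was low in control shRNA library 1 at 31.7 CPM (others 36.2 to 37.6 CPM). IL6 shRNA1 library 3 had the lowest total of its group at 17905397 counts (others 19518284 to 19934278).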

How the results depend on the processing

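Of 25 alternatives, all but the threshold of 0.01 refitted the data. Across these 24, no class median moved beyond the SD between libraries of the class mean. That bound is wide: for complex I the SD was 0.12 (IL6 shRNA1) and 0.08 (control shRNA), beside a median of 0.0003. With 1 library left out, medians crossed 0 for complex I (-0.02 to 0.06), complex IV (-0.009 to 0.07) and ATP synthase (-0.02 to 0.07). The other class medians stayed positive. Of 1457 values for 61 named genes, 1331 kept their side of the threshold (75 of these, never called, changed sign), 112 lost the call, 14 gained one and 0 reversed while called. The 7 called members (1775 of all genes) became 10 (3027 of all genes) with DESeq2, 2 (381) at an adjusted p under 0.01, 0 (42) with a leukocyte score as covariate, 1 (212) without IL6 shRNA1 library 5 and control shRNA libraries 2 and 5, and 2 (499) with a muscle score as covariate, which was added after the data were seen. With each library left out in turn, 5 to 15 members and 864 to 2774 genes were called, the highest of both without IL6 shRNA1 library 1. RLE factors gave 893 genes higher and 860 lower, against 847 and 928.

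Same-numbered libraries did not deviate together (correlations -0.28, -0.07, 0.11, 0.27 and -0.27 for numbers 1 to 5), so the numbers are not taken as pairs. The replicate block left 2 members called, Sdhc among them, and brought all genes called to 755. The causes of these changes were not tested. Depth limits the precision of genes with few counts, such as Cox20 and Cox6b2, at means under 2 CPM, and the 5 mitochondrial genes with 2 to 141 counts. The intervals of Cox20 and Cox6b2 pass 2-fold, for Cox6b2 around a log2 fold change of -0.80.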
